A study of Rattus norvegicus with 12 samples.

Results

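The comparison described here sets the transcriptional response to thrombin against the response to the thrombin receptor-activating peptide TRAP in smooth muscle cells cultured from the aorta of newborn rats. It uses 8 of the 12 arrays of the study, 2 in each of 4 groups, taken by their labels. They are unstimulated cells of the thrombin experiment, cells 120 min after 2 U/ml thrombin, unstimulated cells of the TRAP experiment, and cells 120 min after 25 µM TRAP. The other 4 arrays are the unstimulated and stimulated cells of an experiment in which 25 µM TRAP was given after 24 h with 200 ng/ml pertussis toxin (PTX), a toxin that blocks signalling from receptors to the Gi proteins. All cultures were primary, were starved of serum overnight in 1% bovine albumin, and carried no genetic change. Whether the unstimulated cells of the PTX experiment had the toxin is not stated, nor is the sequence of the peptide. By its title and design text, the study asks what stimulation of these receptors does to transcription over a short time.

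Thrombin, the protease that ends the clotting cascade, signals by cutting protease-activated receptors on the cell surface. The cut exposes a new amino-terminal end that folds back and activates the receptor, and peptides copying that end activate it without a protease. In smooth muscle such receptors couple to Gq, G12/13 and Gi and drive calcium release and MAP kinases. Thrombin can also cut other substrates, while such a peptide needs no cut. PAR1 (F2r) is the main thrombin receptor of these cells in textbook accounts.

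For each gene, the difference of responses is the log2 change after thrombin minus the log2 change after TRAP, each against the unstimulated arrays of its own experiment. Signals were taken as log2(signal + 16), and changes of dim genes are understated. A difference of 1 means that the fold change in signal + 16 after thrombin was 2 times that after TRAP. Above 0 means that the level moved further up, or less far down, after thrombin. The 8 arrays were fitted together with the other 4, and a gene was called when its Benjamini-Hochberg adjusted p from limma, over all 18625 probe sets kept, was under 0.05. Errors are standard errors of the fit, and a gene is described by its brightest probe set. No label ties the 2 arrays of a group to separate cultures, and the p-values rest on a spread between arrays that may be only technical. Agent and experiment cannot be told apart here, since each agent was given in an experiment of its own. The doses are of different agents and are not matched.

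The 2 experiments started from unlike expression levels, and whether the cells or the handling of the arrays differed was not tested. Before stimulation, 3954 of 9906 genes (39.9%) already differed between them, 19.9% higher and 20% lower in the thrombin experiment, and arrays correlated at 0.983 to 0.991 within a group but at 0.913 to 0.941 between the 2 experiments. Contractile smooth muscle markers were high on all 8 arrays, with summed signals of 30754 to 37399 in the thrombin experiment and 45351 to 51347 in the TRAP experiment. Most markers of other cells were too dim to be tested, with highest signals on the 12 arrays of 7.5 for Pecam1 of endothelium, 12 for Ptprc of leukocytes, 14.3 for Sox10 of Schwann cells and 11.5 for Adipoq of fat cells. Tested were 1 of 9 endothelial markers on the array (Tek), 2 of 9 leukocyte markers (Cd14 and Csf1r), 2 of 6 Schwann and neural markers (Cnp and Mbp) and 1 of 7 fat cell markers (Lpl). Of these, Tek, Cd14, Cnp and Mbp were higher in unstimulated cells of the thrombin experiment. The tested leukocyte markers summed to 534.7 to 614.8 in the thrombin and 329 to 428.7 in the TRAP experiment, and the tested neural markers to 354.4 to 551 and 231.3 to 321.5. Tek alone read 67 to 85.7 and 24 to 46.1. Markers of adventitial fibroblasts summed to 7637 to 8003 in the thrombin experiment and to 14016 to 15073 in the TRAP experiment, with 6 of 7 tested lower in the unstimulated cells of the former. Of the S and M phase genes, 21 of 25 were also lower there. None of these lists had a called difference of responses, and their part in the differences below was not tested. In bulk RNA, fewer cells of a kind and less RNA per cell cannot be told apart. TRAP replicate 1 stood apart from its group: the acute-phase gene Saa3 read 222.5 on it, against 22.8 on TRAP replicate 2 and 18.1 and 15.9 in the unstimulated cells. Lcn2, another acute-phase gene, read 293.9 and 20.2 on these 2 TRAP arrays, and Mki67, a marker of dividing cells, 526.6 and 900.3. On these genes TRAP replicate 1 lay nearer to the unstimulated arrays of the PTX experiment (Saa3 at 420.9 and 374.6, Lcn2 at 360.2 and 275.2, Mki67 at 515.4 and 607.5). TRAP after PTX replicate 1, at 20.3, 20.4 and 943.1, lay nearer to the unstimulated arrays of the TRAP experiment. The labels were used as given, and whether they assign these 2 arrays correctly was not tested, so values of TRAP with and without PTX carry that doubt. Of the 51 genes called below, 19 lost their call without TRAP replicate 1 and 15 without TRAP replicate 2.

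The 2 responses differed at 99 of 18625 probe sets (0.532%), 60 above 0 (0.322%) and 39 below 0 (0.209%). By gene these were 51 of 9906 (0.515%), with 25 above 0 (0.252%) and 26 below 0 (0.262%). The single responses were larger sets, with 557 genes (5.62%) changed after thrombin, 2.97% of all genes up and 2.65% down, and 392 (3.96%) after TRAP, 2.15% up and 1.81% down. After TRAP following PTX, 2.96% of genes changed. At an unadjusted p under 0.05, 1875 probe sets differed. The 99 rested on few arrays. Leaving out 1 array of the compared 8 gave 33 without thrombin replicate 1, 39 without thrombin replicate 2, 37 and 33 without either unstimulated array of the TRAP experiment, 60 and 140 without either of the thrombin experiment, 73 without TRAP replicate 1 and 67 without TRAP replicate 2. With arrays centred on their medians the split was 34 above and 39 below 0, and without the intensity trend 23 probe sets remained. All 99 kept their sign in each of these fits.

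**Figure D1:**
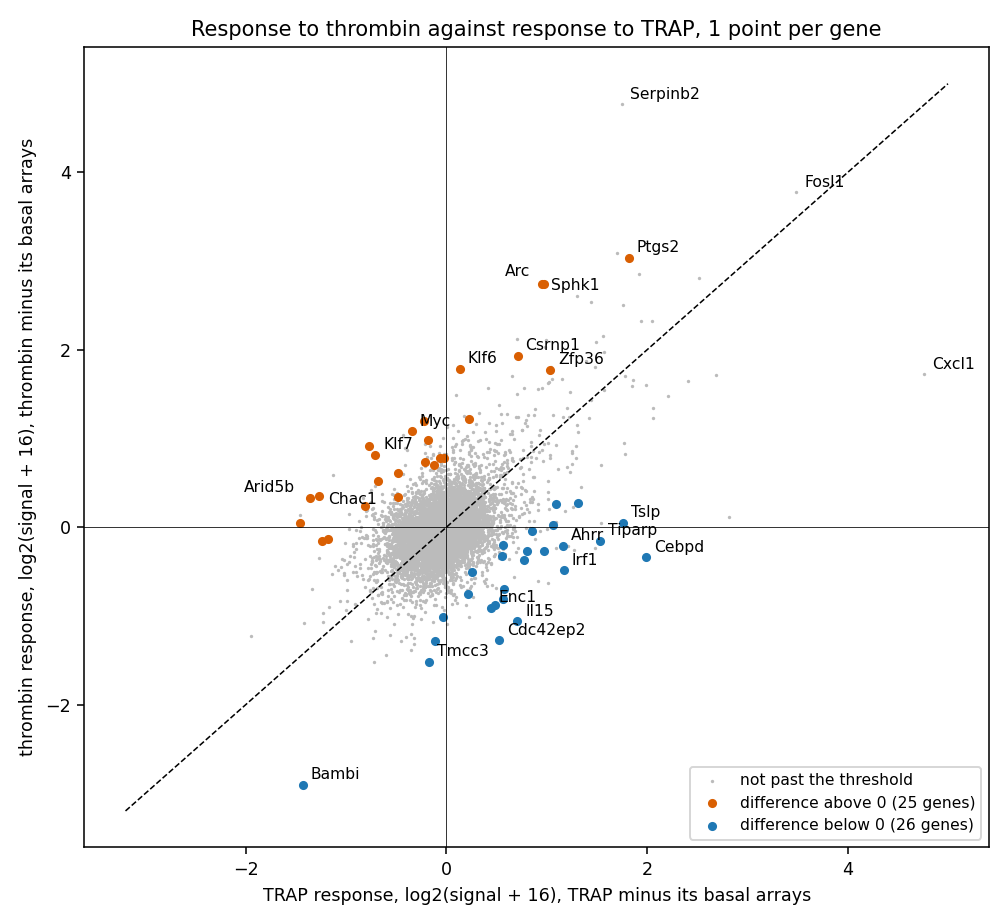
Response to TRAP (x axis) against response to thrombin (y axis), both on the log2(signal + 16) scale, with 1 point for each of 9906 genes and a dashed line where the responses are equal. The 25 orange genes lie above the line and the 26 blue genes below it. Serpinb2 and Cxcl1 lie far from the line in grey, not past the threshold.

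The 51 genes fell into a few patterns. Among the 25 above 0, 12 rose after thrombin with no called change after TRAP, 7 fell after TRAP with no called change after thrombin, 4 rose after both, and 2 rose after thrombin and fell after TRAP. Among the 26 below 0, 14 rose after TRAP with no called change after thrombin, 9 fell after thrombin with none after TRAP, 2 fell after thrombin and rose after TRAP, and 1 fell after both. The starting level differed for most of them. Of the 25 genes, 18 were lower in unstimulated cells of the thrombin experiment, and of the 26 genes, 19 were higher there. The levels of the 2 stimulated groups lay closer together than those of the unstimulated groups for 16 of the 25 (64%) and 17 of the 26 (65.4%), against 5412 of all 9906 genes (54.6%). Because the starting level is part of the difference of responses, these shares are descriptions only.

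Immediate-early genes are switched on without new protein synthesis. Of the 25 genes above 0, 5 were on the list of immediate-early transcription factors and related genes used here. Csrnp1, a nuclear protein of the cysteine-serine-rich family, read 250.9 and 303.1 before and 1010.9 and 1191 after thrombin, and 245.9 and 237.7 before and 409.2 and 401.7 after TRAP. Its 4 unstimulated arrays lay between 237.7 and 303.1, and both thrombin arrays lay above all others. It rose by 1.93 after thrombin and 0.71 after TRAP, a difference of 1.22 ± 0.22 (adjusted p = 0.0226). Zfp36, which encodes tristetraprolin, a protein that speeds the decay of AU-rich messages, read 328.7 and 308.1 before and 1122.3 and 1131.4 after thrombin. In the TRAP experiment it went from 313.9 and 317.3 to 641.7 and 686.6. The starting levels overlapped, and the difference was 0.74 ± 0.14 (adjusted p = 0.0275). Arc, an activity-regulated cytoskeletal gene best known in neurons, was dim at first, with 26.3 and 43.9 before and 352.1 and 293.2 after thrombin. It went from 34.5 and 31.5 to 71.1 and 89.5 with TRAP. The 2 stimulated pairs did not overlap, with a difference of 1.78 ± 0.31 (adjusted p = 0.0226).

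Klf6 and Myc behaved otherwise, since they started from unlike levels. Klf6, a zinc finger transcription factor induced by injury, read 245.4 and 296.9 before and 932.2 and 1005.3 after thrombin. In the TRAP experiment it was already at 930.3 and 843.3 and then at 885.3 and 1070.4. The thrombin pair thus reached the range that the TRAP experiment held throughout, and the difference was 1.65 ± 0.21 (adjusted p = 0.00328). Myc, a driver of cell growth, rose after thrombin from 109.3 and 139.1 to 283.1 and 274.3. In the TRAP experiment it read 716.7 and 728.5 before and 562.8 and 567.9 after, a change of -0.35 ± 0.12 that missed the threshold (adjusted p = 0.137). All 4 TRAP arrays stayed above both thrombin arrays, and the difference was 1.43 ± 0.16 (adjusted p = 0.00172). Of 33 immediate-early transcription factors and related genes tested, 5 were called above 0 (0.252% of all genes were) and none below, and the list's median difference was 0.385 against -0.0232 over all 9906 genes. After thrombin 21 of the 33 rose (2.97% of all genes did), and after TRAP 16 (2.15%). The calls of Klf6 and Myc held in all 12 fits that each left out 1 array. The calls of Arc, Csrnp1 and Zfp36 held in 6, 5 and 4 of 12. Each of these 3 was lost without unstimulated thrombin replicate 1, either unstimulated TRAP array, either thrombin array or TRAP replicate 1 (adjusted p up to 0.135). Csrnp1 and Zfp36 were also lost without TRAP replicate 2, and Zfp36 without unstimulated thrombin replicate 2.

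Other regulators of the same direction were dimmer or smaller. Klf7, a relative of Klf6, rose from 47.3 and 46.6 to 88.6 and 100.9 after thrombin and fell from 117.5 and 162.9 to 84.5 and 72.9 after TRAP. The difference was 1.52 ± 0.23 (adjusted p = 0.00931), and 1 of the 2 further probe sets gave 1.60 with an adjusted p of 0.00589. Otud1, a deubiquitinase, rose from 262.9 and 240.5 to 593.2 and 598.6 after thrombin, while 596.8 and 602.1 became 453.9 and 573 with TRAP. Its difference was 1.42 ± 0.19 (adjusted p = 0.0047), the thrombin arrays again reaching the unstimulated level of the other experiment. Ppp1r15a (GADD34), a stress-induced phosphatase subunit, rose by 1.22 after thrombin and by an uncalled 0.22 after TRAP, a difference of 1.00 ± 0.18 (adjusted p = 0.0271). Gem, a small GTP-binding protein, read at most 73.6 on these 8 arrays, rose by 0.92 after thrombin and had an uncalled change of -0.77 after TRAP. Pdp2, a phosphatase subunit acting on pyruvate dehydrogenase, had a difference of 1.09 ± 0.19, and its second probe set gave 0.73 (adjusted p = 0.338). Gem and Ppp1r15a were called in 6, Pdp2 in 5, and Klf7 in 10 of the 12 fits without 1 array, and all 4 were lost without unstimulated TRAP replicate 2 and without thrombin replicate 2. Without TRAP replicate 1, Ppp1r15a and Pdp2 were lost (adjusted p = 0.0964 and 0.0557).

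Genes for 2 enzymes of lipid mediator synthesis were also called above 0. Ptgs2, which encodes cyclooxygenase-2 and so the first step of prostaglandin synthesis, rose after both agents. It read 389.4 and 428 before and 3235.8 and 3696.2 after thrombin. With TRAP it went from 1050.4 and 945.9 to 3591.6 and 3510. The 4 stimulated arrays overlapped, and the unstimulated ones did not. The responses of 3.03 and 1.82 differed by 1.22 ± 0.17 (adjusted p = 0.00506), a call that held in all 12 fits. Sphk1, the kinase that makes sphingosine 1-phosphate, read 45.6 and 45.5 before and 359.4 and 432.3 after thrombin, and 142.6 and 157.6 before and 251.1 and 367.8 after TRAP. The stimulated pairs overlapped here too. Its difference of 1.79 ± 0.36 was the largest above 0 among called genes but only just passed (adjusted p = 0.0445), and it held in 3 of 12 fits, being lost without any 1 of the 8 compared arrays other than TRAP replicate 2, and without either unstimulated PTX array (adjusted p up to 0.185). The list of 12 prostaglandin and sphingosine 1-phosphate genes had these 2 called above 0 (0.252% of all genes were) and none below. Its median was -0.0263, against -0.0232 over all genes.

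Several genes of the actin cytoskeleton rose after thrombin and not after TRAP. The actin-associated genes Enc1 and Synpo and the membrane skeleton gene Add3 went the other way, falling after thrombin, and are given below. Fhl2, a LIM-domain protein of focal adhesions and a known target of serum response factor, read 1363.9 and 1405.1 before and 2207 and 2309.8 after thrombin, against 1754.9 and 1701.5 before and 1610 and 1547.6 after TRAP. Both thrombin arrays were above all others, and the difference was 0.83 ± 0.12 (adjusted p = 0.00506). Its second probe set gave 0.86 (adjusted p = 0.0171). Nexn, the F-actin binding protein nexilin, rose from 285.3 and 271.1 to 434.1 and 519.4 after thrombin, while it read 1044.6 and 1085.3 before and 931.2 and 895.6 after TRAP. The difference of 0.96 ± 0.14 (adjusted p = 0.00724) thus stood on levels lower throughout in the thrombin experiment. Ldb3, a Z-disc PDZ-LIM protein, rose from 103.3 and 90.5 to 209 and 203.9 after thrombin against 116 and 112.3 before and 102.9 and 95 after TRAP. That difference of 1.16 ± 0.23 passed narrowly (adjusted p = 0.0461). Palld, the actin-bundling protein palladin, rose after thrombin from 1509.4 and 1260.4 to 2128.2 and 1838.4 and fell after TRAP from 3120.9 and 2954.8 to 2029.8 and 1761.5. Its stimulated pairs overlapped, and the difference was 1.19 ± 0.16 (adjusted p = 0.0048). Of 23 actin genes regulated by serum response factor and its MRTF cofactors, 1 was called above 0, Fhl2 (0.252% of all genes were). Whether or not called, 20 had a positive difference (4582 of all 9906 genes did), with a median of 0.167 against -0.0232 over all genes. In unstimulated cells of the thrombin experiment, 14 of the 23 were lower (20% of all genes were) and 1 was higher (19.9%), with a median of -0.455. After thrombin 7 of these 23 rose (2.97% of all genes did) and after TRAP none (2.15% of all genes did). Srf itself had a difference of 0.74 ± 0.15 that missed the threshold (adjusted p = 0.0535). Among 17 contractile smooth muscle markers none was called, and 15 had a positive difference (median 0.227). Of these 17, 13 were lower and none higher in unstimulated cells of the thrombin experiment (median -0.758). The part of the starting levels in the medians of both lists was not tested. Fhl2 and Palld held in all 12 fits, Nexn was lost without unstimulated TRAP replicate 2 (adjusted p = 0.0507), and Ldb3 was lost without any 1 of the 8 compared arrays.

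A CArG box, the site bound by serum response factor, lay in the promoter windows of 4 of the 18 called genes above 0 that have an entry in the RefSeq promoter table (build GRCr8), against 1.51% of 27457 genes' windows. It lay in none of the 20 windows of called genes below 0. The windows are the 250 bases before each gene's outermost start, searched on both strands. The motifs were the CArG box, the NF-kB site, AP-1 (TGANTCA) and the cyclic AMP response element (TGACGT). AP-1 lay in 1 of 18 windows above 0 and 2 of 20 below 0, against 6.33% of all windows. The cyclic AMP response element lay in 1 of 18 and 1 of 20, against 7.25%. The 4 genes with a CArG box were Klf6, Fhl2, Ldb3 and Zfp36. The windows of Klf6 and Fhl2 are printed with matches in capitals, as examples of windows that hold the box. Klf6 is 1 of the 3 genes above 0 with the largest difference and an entry, and Fhl2 is the called member of the actin list. Klf6 lies at chr17:69458479-69458728 on the minus strand, and Fhl2 at chr9:52954541-52954790 on the minus strand.
Klf6: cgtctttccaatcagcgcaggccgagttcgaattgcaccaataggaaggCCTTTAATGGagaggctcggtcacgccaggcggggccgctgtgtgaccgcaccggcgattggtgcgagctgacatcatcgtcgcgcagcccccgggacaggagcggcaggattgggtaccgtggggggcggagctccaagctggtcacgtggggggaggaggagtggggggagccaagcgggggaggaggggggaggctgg
Fhl2: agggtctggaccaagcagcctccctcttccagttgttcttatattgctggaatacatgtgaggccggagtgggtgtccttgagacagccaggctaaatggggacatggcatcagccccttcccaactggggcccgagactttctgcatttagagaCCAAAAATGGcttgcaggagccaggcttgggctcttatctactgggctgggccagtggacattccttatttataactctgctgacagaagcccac
In both windows the capitals mark 1 CArG box and no other motif was found. Sphk1 and Arid5b, the other 2 of the 3 largest above 0 with an entry, held none of the 4 motifs. A match is a run of letters and not evidence of binding.

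Other genes above 0 fell after TRAP. Chac1, Trib3 and Sesn2 are induced by ATF4 when amino acids run short or the endoplasmic reticulum is stressed. Chac1, which degrades glutathione, read 575.8 and 597.5 before and 276.8 and 196.3 after TRAP. With thrombin 263.3 and 259.5 became 311.4 and 365, an uncalled 0.35. Both TRAP arrays came down to the range of the thrombin experiment or below it, and the difference was 1.62 ± 0.20 (adjusted p = 0.0026). Trib3, a pseudokinase that restrains ATF4 and Akt, fell from 488.7 and 453.8 to 221.4 and 115.4 after TRAP and stayed at 201.5 and 223.6 before and 208.7 and 231.7 after thrombin. Sesn2, a leucine sensor upstream of mTORC1, fell from 725.1 and 776 to 371.4 and 255.1 after TRAP, against 579.1 and 564 before and 498.3 and 525.7 after thrombin. In both genes the 2 TRAP arrays lay below all unstimulated arrays of their experiment but far apart from each other. The differences were 1.51 ± 0.28 and 1.09 ± 0.20 (both adjusted p = 0.0271). Further probe sets of Trib3 gave 1.05 (adjusted p = 0.203) and 2.05 (adjusted p = 0.0293), and one of Sesn2 gave 0.77 (adjusted p = 0.426). The thrombin change on these Trib3 sets was 0.25 and 0.90. The latter went from 108.9 and 121.1 to 235.5 and 222.4 and was not called (adjusted p = 0.0798). The first values became 1.94 and 1.34 without TRAP replicate 1 and 1.08 and 0.83 without TRAP replicate 2, Sesn2 then missing the threshold (adjusted p = 0.0564). Among 22 genes of the integrated stress and unfolded protein responses these 3 were the called ones, all above 0, where 0.252% of all genes were called, and the list's median was 0.0244. After TRAP following PTX all 3 were past the threshold again, with changes of -1.24 for Chac1 and -1.44 for Trib3 and with Sesn2 at 360.1 and 421.9 against 822.4 and 770.7 before.

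Arid5b and Nfix also fell after TRAP. Arid5b, a chromatin regulator, read 1235.7 and 1240.6 before and 486.5 and 455.8 after TRAP, and 375.3 and 417 before and 527.7 and 479.4 after thrombin. The stimulated pairs overlapped although the unstimulated levels differed by -1.61 (thrombin minus TRAP experiment), and the difference of responses was 1.70 ± 0.21 (adjusted p = 0.00296). Nfix, a nuclear factor I transcription factor, fell from 1667 and 1731.5 to 814.9 and 671.4 after TRAP and read 610.3 and 597.5 before and 577.7 and 520.9 after thrombin, a difference of 1.05 ± 0.16 (adjusted p = 0.00964). In the PTX experiment Arid5b went from 906.4 and 604 to 816.7 and 702.7 and Nfix from 1353.2 and 1114.2 to 1211.3 and 1264.2, changes of 0.03 and 0.01 that were not called. Whether these 2 TRAP responses differ was not tested here. Traf5, an adaptor of tumour necrosis factor receptors, and Mllt11 also fell after TRAP, with differences of 1.04 ± 0.21 and 0.83 ± 0.16 (adjusted p = 0.0445 and 0.0397). The call of Arid5b held in all 12 fits, that of Nfix in 10, that of Chac1 in 12, that of Trib3 in 7, that of Sesn2 in 5, and those of Traf5 and Mllt11 in 4 each. Each gene of these that lost its call lost it without unstimulated TRAP replicate 2 and without thrombin replicate 1. Traf5 was also lost without TRAP replicate 1 (adjusted p = 0.123).

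**Figure D2:**
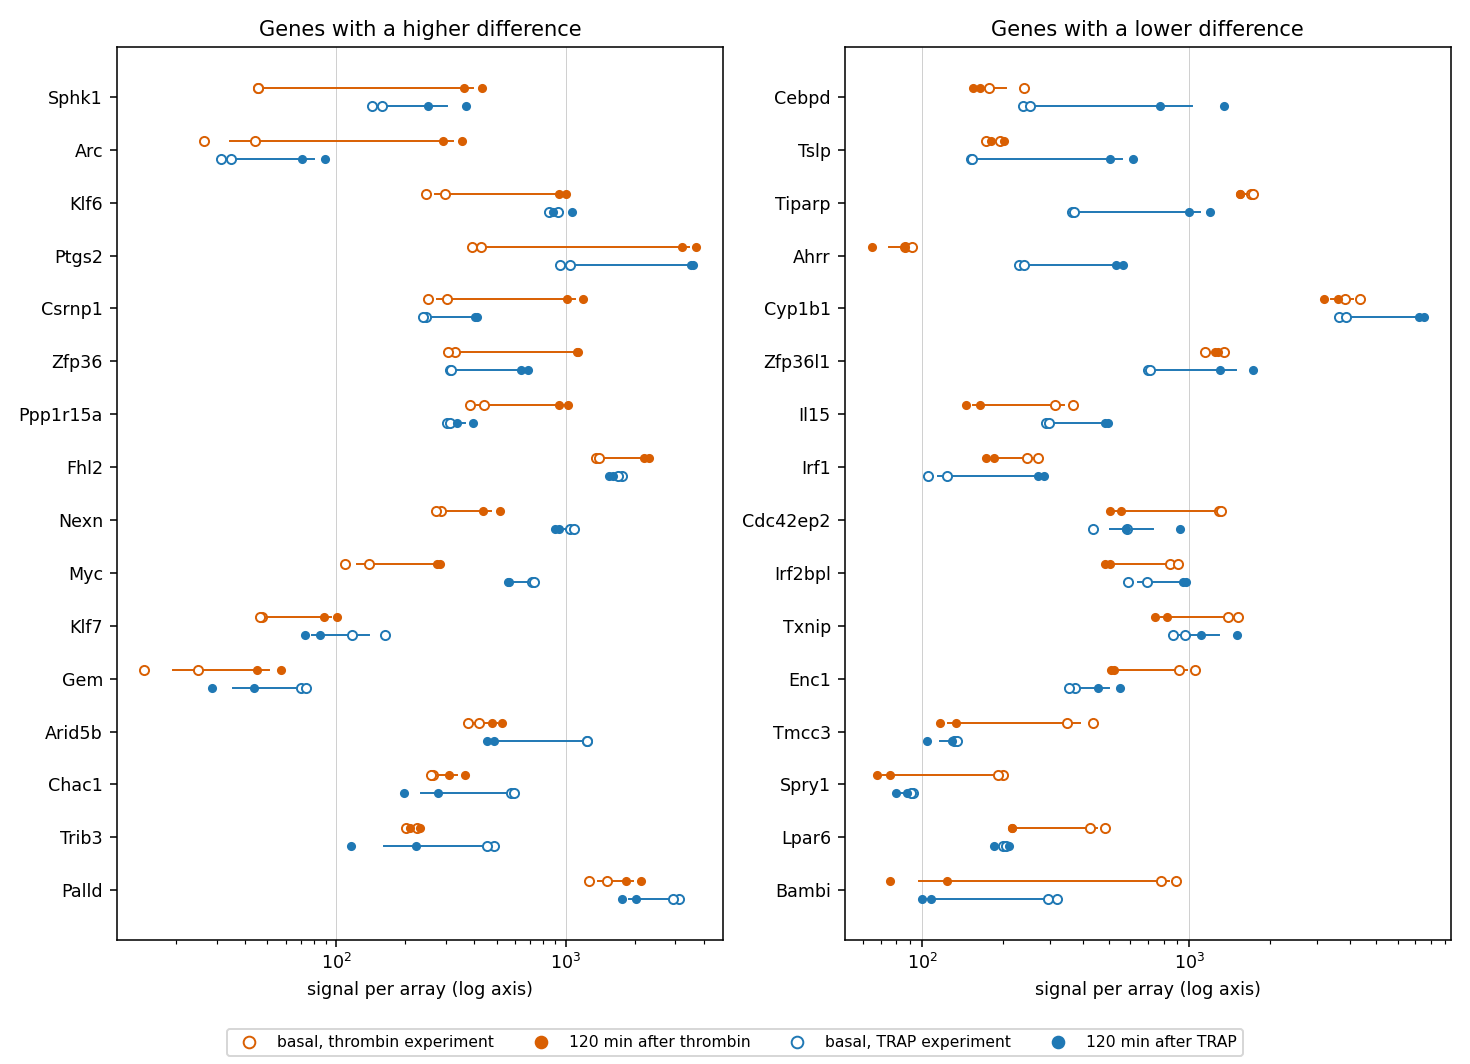
Signal on each of the 8 compared arrays (log axis) for 16 genes with a difference above 0 (left) and 16 below 0 (right). Open points are unstimulated arrays, filled points are arrays 120 min after thrombin (orange) or TRAP (blue), and lines join group means of log2(signal + 16). For Klf6 the filled orange points (932.2 and 1005.3) reach the open blue ones (930.3 and 843.3).

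Bcr and Tnfrsf11b complete the genes above 0. Bcr, best known as a fusion partner of the kinase Abl in leukaemia, rose after thrombin from 609.9 and 624.1 to 1083.8 and 1062.3 and read 254.6 and 273.2 before and 263.8 and 253.6 after TRAP. It was higher in the thrombin experiment from the start, and the difference was 0.81 ± 0.15 (adjusted p = 0.0248). Tnfrsf11b encodes osteoprotegerin, a decoy receptor that limits vascular calcification. It rose from 490.1 and 492.2 to 844.5 and 858.9 after thrombin, while 792.8 and 870.3 became 693.3 and 908.1 with TRAP, a difference of 0.84 ± 0.17 (adjusted p = 0.0423). Its value was 0.65 (adjusted p = 0.11) without TRAP replicate 1, and it held in 3 of 12 fits against 5 for Bcr. Both were lost without either unstimulated TRAP array, either thrombin array, unstimulated thrombin replicate 1 or TRAP replicate 1.

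The aryl hydrocarbon receptor is a ligand-activated factor that responds to dioxin-like compounds and to metabolites of tryptophan. Of 6 genes tested from its list, 3 (Tiparp, Ahrr and Cyp1b1) rose after TRAP, where 2.15% of all genes did, and none of the 6 had a called change after thrombin. Tiparp, an ADP-ribosyltransferase that is induced by this receptor and restrains it, read 363.1 and 368.7 before and 1195 and 995.9 after TRAP. In the thrombin experiment it stood at 1696.5 and 1732.2 before and 1539.4 and 1544.5 after. All 4 arrays of the thrombin experiment were above both TRAP arrays, and the difference was -1.69 ± 0.14 (adjusted p = 0.000207). A second Tiparp probe set gave -0.49 ± 0.45, which missed the threshold (adjusted p = 0.786). Ahrr, the receptor's repressor, went the other way at the start, with 230.9 and 240.3 before and 529.8 and 564.1 after TRAP against 86.1 and 91.9 before and 65 and 86.1 after thrombin. Its difference was -1.37 ± 0.18 (adjusted p = 0.00376). Cyp1b1, an oxidase that metabolises oestradiol and polycyclic hydrocarbons, read 3621.4 and 3851.7 before and 7226 and 7505.2 after TRAP, and 4340.9 and 3831.4 before and 3592.6 and 3188.7 after thrombin. Here the unstimulated arrays overlapped, and both TRAP arrays lay above all others, with a difference of -1.24 ± 0.14 (adjusted p = 0.00172).

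These 3 were called in all 12 fits without 1 array and under every other setting tried. Of the 6 tested, 3 were called below 0 (0.262% of all genes were) and none above, with a median of -0.956 against -0.0232 over all genes. The list was drawn up with the values of Tiparp and Ahrr known. The receptor itself, Ahr, read 83.6 to 142.9 over the 12 arrays and had a difference of -0.44 ± 0.20, and its partner Arnt had one of 0.16 ± 0.24. Cyp1a1, the classical target of the receptor, was too dim on average to be tested, and was looked at after the others. It read 134.4 and 132.5 before and 17.7 and 19.9 after thrombin, and 1.5 and 1.2 before and 27.5 and 39.7 after TRAP. The thrombin arrays lay below their unstimulated pair, and the TRAP arrays above theirs. In the fit without a filter on dim probe sets, Cyp1a1 changed by -2.1 after thrombin (adjusted p = 0.000228) and by 1.5 after TRAP (adjusted p = 0.00368). The difference was -3.61 ± 0.31 (adjusted p = 0.000626). At signals this low the size of a log2 change depends on the pseudocount. With TRAP following PTX, Tiparp, Ahrr and Cyp1b1 rose by 1.70, 1.29 and 0.77.

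The core of the element bound by the aryl hydrocarbon receptor, GCGTG, is short and lay on either strand in 27.1% of the 27457 windows. It was searched after these genes had been seen. The windows of the 3 called targets are printed because all hold it: Tiparp at chr2:152063519-152063768, Ahrr at chr1:30821969-30822218 and Cyp1b1 at chr6:21094315-21094564, all on the plus strand of GRCr8, from RefSeq. Capitals mark GCGTG or its complement read on the other strand.
Tiparp: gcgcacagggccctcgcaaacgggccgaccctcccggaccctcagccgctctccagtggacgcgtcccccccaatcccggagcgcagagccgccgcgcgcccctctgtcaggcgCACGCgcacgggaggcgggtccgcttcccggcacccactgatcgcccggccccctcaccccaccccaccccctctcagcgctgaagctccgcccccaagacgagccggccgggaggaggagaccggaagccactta
Ahrr: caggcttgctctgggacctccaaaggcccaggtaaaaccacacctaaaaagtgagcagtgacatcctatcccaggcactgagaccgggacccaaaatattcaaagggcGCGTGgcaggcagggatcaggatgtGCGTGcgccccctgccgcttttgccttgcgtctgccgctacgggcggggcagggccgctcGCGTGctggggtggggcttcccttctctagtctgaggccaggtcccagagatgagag
Cyp1b1: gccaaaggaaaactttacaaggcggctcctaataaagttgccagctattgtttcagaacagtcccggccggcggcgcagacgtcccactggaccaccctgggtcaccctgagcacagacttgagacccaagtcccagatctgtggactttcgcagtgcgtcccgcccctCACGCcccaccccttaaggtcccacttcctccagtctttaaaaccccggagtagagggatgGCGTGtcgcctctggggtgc
Tiparp holds 1 match, Ahrr 3 and Cyp1b1 2. Over all called genes with an entry, 8 of 20 below 0 and 10 of 18 above 0 held at least 1 match.

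Inflammatory regulators made up a further group below 0. Tslp, a cytokine that alerts dendritic cells and lymphocytes, read 152.4 and 154 before and 505.3 and 614.9 after TRAP. In the thrombin experiment it read 195.8 and 173.5 before and 180.7 and 202.6 after. The 2 TRAP arrays stood alone above the other 6, and the difference was -1.71 ± 0.24 (adjusted p = 0.00506). Il15, a cytokine of natural killer and memory T cells, fell after thrombin from 367.9 and 314.6 to 164.2 and 145.5 and rose after TRAP from 289.9 and 298.6 to 497.5 and 483.4. Its unstimulated levels differed by an uncalled 0.20 (adjusted p = 0.237), and it had a difference of -1.77 ± 0.18 (adjusted p = 0.000912). Irf2bpl, a transcriptional regulator, was the other gene that fell after thrombin and rose after TRAP, going from 844.4 and 907.9 to 504.7 and 482.6 after thrombin and from 696.6 and 590.7 to 966.9 and 945.9 after TRAP. The stimulated pairs of both genes lay on opposite sides of all unstimulated arrays. For Irf2bpl the difference was -1.37 ± 0.15 (adjusted p = 0.00144), while a dimmer second probe set gave -0.23 (adjusted p = 0.903).

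Irf1, a transcription factor of the interferon response and an activator of Il15 in textbook accounts, rose after TRAP from 105.3 and 124.3 to 271.5 and 284.6. With thrombin 246.5 and 270.2 became 185.9 and 173.2, an uncalled -0.49. The TRAP arrays lay just above the unstimulated arrays of the thrombin experiment. The difference was -1.66 ± 0.20 (adjusted p = 0.00183). Cebpd, a transcription factor of the acute-phase response, had the largest difference of the genes called with the filter, -2.33 ± 0.32 (adjusted p = 0.00506). It read 240.2 and 177.7 before and 165.3 and 154.7 after thrombin, and 238.9 and 254.2 before and 1351.2 and 776.6 after TRAP. The higher of the TRAP arrays was replicate 1, the array with high Saa3 and Lcn2, and without it the difference was -1.94 (adjusted p = 0.00955). Its second probe set gave -2.29 (adjusted p = 0.00977). Il15, Tslp, Irf1, Irf2bpl and Cebpd were each called in all 12 fits.

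By list, 2 of 15 chemokines, cytokines and adhesion molecules and 1 of 14 acute-phase genes were called. Of 16 genes listed under NF-kB feedback and subunits, 1 was called, the interferon response factor Irf1. All these were below 0, where 0.262% of all genes were called. The medians were -0.539 for the chemokine list, -0.281 for the NF-kB list and -0.637 for the acute-phase list. A positive difference was measured for 3, 5 and 1 of their genes, and for 4582 of all 9906 genes. Some of these genes read higher on TRAP replicate 1, and its part in the medians was not tested. Over the chemokine list, signals summed to 12009.2 and 24902.4 on the 2 TRAP arrays and to 15861.9 and 16100 on the thrombin arrays. For the NF-kB list the sums were 4487.3 and 6931.4 against 5734.7 and 5791.3. For the acute-phase list they were 6428.5 and 10101.3 against 5814.8 and 5886.1. Cxcl1, a neutrophil chemokine, read 80.6 and 85.4 before and 5354.7 and 1332.8 after TRAP, and 1552.3 and 1412.1 before and 4953.9 and 4894.7 after thrombin. Its difference of -3.04 ± 0.84 missed the threshold (adjusted p = 0.165) and was -2.05 without TRAP replicate 1 and -4.04 without TRAP replicate 2. Nfkbiz and Nfkbia, feedback genes of NF-kB, also read higher on TRAP replicate 1 (1379.6 against 594.3, and 744.7 against 359.9). Among 13 interferon-stimulated genes none was called, with a median of -0.125.

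An NF-kB site was found in 3 of the 20 promoter windows of called genes below 0 (Tslp, Irf1 and Ahrr) and in none of 18 above 0, against 6.40% of all windows. That of Tslp, 1 of the 3 genes below 0 with the largest difference and an entry, is printed as an example, at chr18:24723740-24723989 on the plus strand, with the 1 match in capitals.
Tslp: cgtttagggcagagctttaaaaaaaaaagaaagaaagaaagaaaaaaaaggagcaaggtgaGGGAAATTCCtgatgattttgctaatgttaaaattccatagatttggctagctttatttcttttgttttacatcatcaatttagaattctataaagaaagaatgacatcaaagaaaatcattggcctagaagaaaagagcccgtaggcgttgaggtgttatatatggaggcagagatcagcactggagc
The remaining 2 of those 3 were Il15, with 1 AP-1 match, and Tiparp, with none of the 4 motifs.

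**Figure D3:**
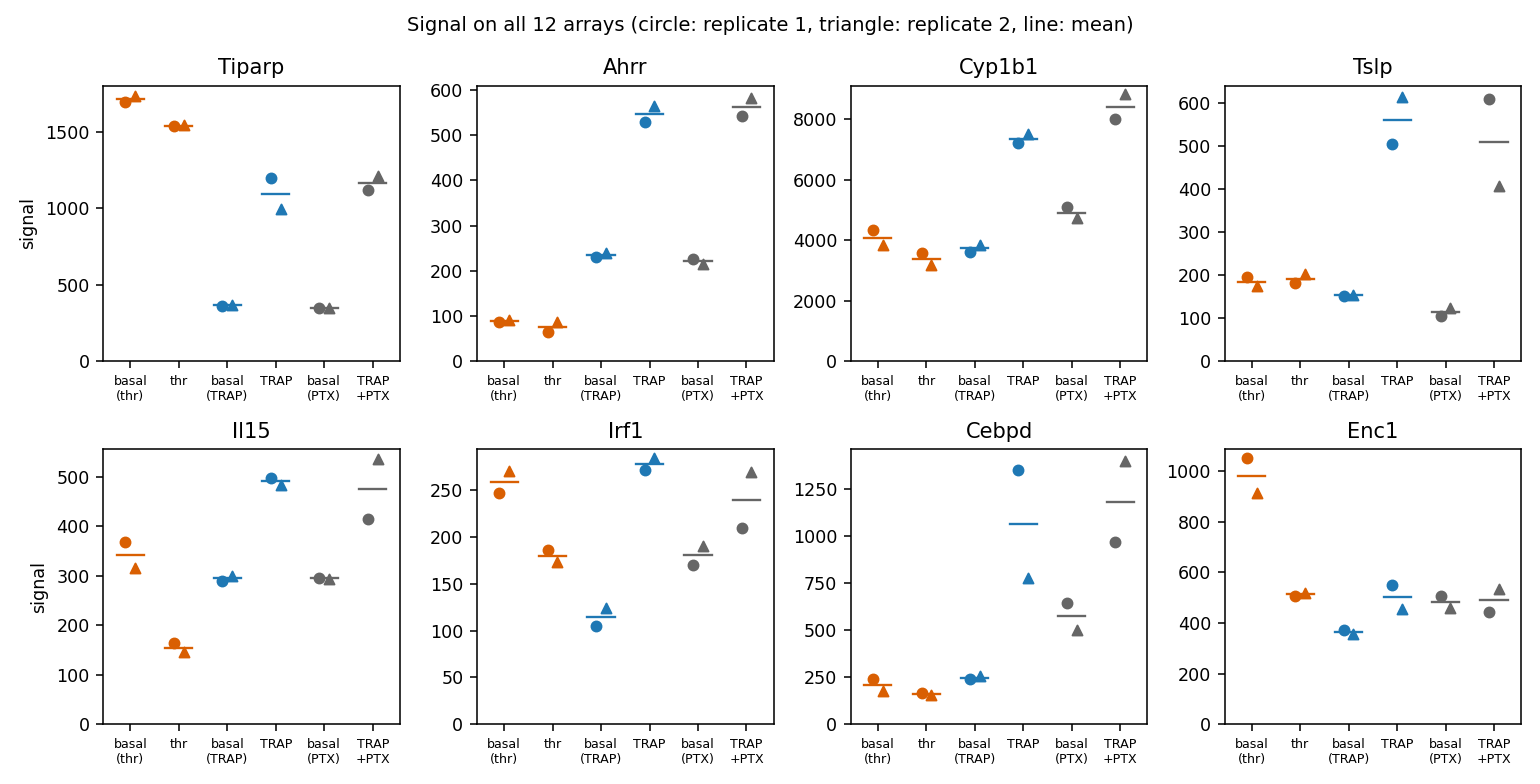
Signal on all 12 arrays for 8 genes below 0, with 1 panel per gene, circles for replicate 1, triangles for replicate 2 and a line at the mean of each group. Tiparp, Ahrr, Cyp1b1 and Tslp are higher after TRAP with and without PTX, and Cebpd shows the wide spread between the 2 TRAP arrays, 1351.2 and 776.6.

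A last group below 0 fell after thrombin. Bambi, a decoy receptor that dampens BMP and TGF-beta signals, read 782.3 and 891.1 before and 75.7 and 123.8 after thrombin, and 296.2 and 318.6 before and 99.7 and 107.5 after TRAP. The stimulated pairs overlapped, so the responses of -2.91 and -1.44 reached the same low range from unlike starts. The difference was -1.47 ± 0.24 (adjusted p = 0.0139), lost without either unstimulated TRAP array (adjusted p up to 0.0829). Spry1, an inhibitor of receptor tyrosine kinase signalling, fell from 201.1 and 192.9 to 67.8 and 75.7 after thrombin and read 92.8 and 90.6 before and 87.5 and 79.9 after TRAP. The thrombin arrays ended just below the level that the TRAP experiment held throughout. Lpar6, a receptor for lysophosphatidic acid, fell from 423 and 484.3 to 216.5 and 216.9 and read between 185.7 and 211.6 on the TRAP arrays and their unstimulated pair. Tmcc3 fell from 348.1 and 435.6 to 134.3 and 117.1, inside its range of 104.3 to 135.4 in the TRAP experiment. The differences were -1.17 ± 0.20 for Spry1, -0.98 ± 0.18 for Lpar6 and -1.35 ± 0.23 for Tmcc3. A dim second probe set of Tmcc3 gave -1.20 (adjusted p = 0.167).

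Enc1, an actin-associated Kelch protein, fell after thrombin from 1051.5 and 912.4 to 507.6 and 520.4, while 372.7 and 354.9 became 549.7 and 453.7 with TRAP. Again the stimulated pairs overlapped, and the difference of -1.35 ± 0.17 (adjusted p = 0.00331) held in all 12 fits. Cdc42ep2, an effector of the GTPase Cdc42, went from 1290.8 and 1311.5 to 554.3 and 502.3 after thrombin, against 434.4 and 582.9 before and 923.1 and 578.8 after TRAP, with a difference of -1.80 ± 0.30 (adjusted p = 0.0171). TRAP replicate 2 overlapped the unstimulated pair, and the thrombin pair lay below both TRAP arrays. Txnip, which binds thioredoxin and limits glucose uptake, fell from 1515.6 and 1392.3 to 743.9 and 823.4 after thrombin and read 965.8 and 870.2 before and 1509.7 and 1102.6 after TRAP, a difference of -1.36 ± 0.22 (adjusted p = 0.0107). Synpo, the actin-associated protein synaptopodin, had unstimulated arrays that overlapped, from 1050.8 to 1322.3, and then read 688.9 and 694.7 after thrombin and 1513.7 and 1542.9 after TRAP. The stimulated pairs lay on opposite sides of the unstimulated arrays, although the TRAP change of 0.22 was not called, and the difference was -0.97 ± 0.17 (adjusted p = 0.0175). Add3, the membrane skeleton protein adducin 3, and Trappc5, a subunit of a vesicle tethering complex, also fell after thrombin, with differences of -1.27 ± 0.22 and -0.77 ± 0.16. Further probe sets of Synpo gave -0.86 (adjusted p = 0.159) and 0.01, and one of Add3 gave -0.16, none called. Those of Trappc5 gave -0.33 (adjusted p = 0.759) and -0.46 (adjusted p = 0.659), and one of Enc1 gave -0.81 (adjusted p = 0.414). In the fits without 1 array, Txnip was called in 9, Cdc42ep2 in 8, Add3 in 7, Spry1, Lpar6, Tmcc3 and Synpo in 6, and Trappc5 in 1 of 12. Each of these 8 was lost without thrombin replicate 1, and each other than Txnip without thrombin replicate 2 as well. Without TRAP replicate 1, Lpar6, Tmcc3 and Spry1 were lost (adjusted p = 0.0917, 0.0678 and 0.0622).

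The other genes below 0 rose after TRAP without a called thrombin response. Smad3, a transducer of TGF-beta, rose from 309.8 and 259.7 to 432.4 and 417.9, and Tgif1, a repressor of SMAD-driven transcription, from 412.1 and 482.6 to 968.4 and 963.8. Smad3 was higher in the thrombin experiment on all 4 arrays (480.4 to 633.7), whereas unstimulated Tgif1 lay between 412.1 and 515.5 in both experiments. The differences were -0.88 ± 0.16 and -0.83 ± 0.15 (adjusted p = 0.023 and 0.026). With Bambi they were the 3 called of 23 targets and regulators of BMP, TGF-beta and Notch, all below 0 (0.262% of all genes were), with a list median of -0.111. Arhgef3, a guanine nucleotide exchange factor, rose by 1.31 after TRAP to 243.6 and 256.8, above every array of the thrombin experiment, with a difference of -1.04 ± 0.19. Zfp36l1, a relative of tristetraprolin, had a difference of -1.04 ± 0.21, opposite in sign to Zfp36 itself. Fnip2, a partner of folliculin, Ipmk, an inositol phosphate kinase, Sim2, a bHLH-PAS factor, and Edc3, a protein of mRNA decapping, had differences of -1.07, -0.89, -1.14 and -0.77. A dim second probe set of Fnip2 gave 0.15, one of Edc3 gave -0.20 and one of Smad3 gave -0.355 (adjusted p = 0.79), none called. In the fits without 1 array, Fnip2 was called in 12, Ipmk in 10, Smad3 and Tgif1 in 6, Arhgef3 in 5, Zfp36l1 and Sim2 in 4 and Edc3 in 1 of 12. Each of these other than Fnip2 was lost without thrombin replicate 2. Without TRAP replicate 1 the calls of Smad3, Tgif1, Arhgef3, Zfp36l1, Sim2 and Edc3 were lost too (adjusted p = 0.0733, 0.0741, 0.0601, 0.137, 0.11 and 0.131).

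**Figure D4:**
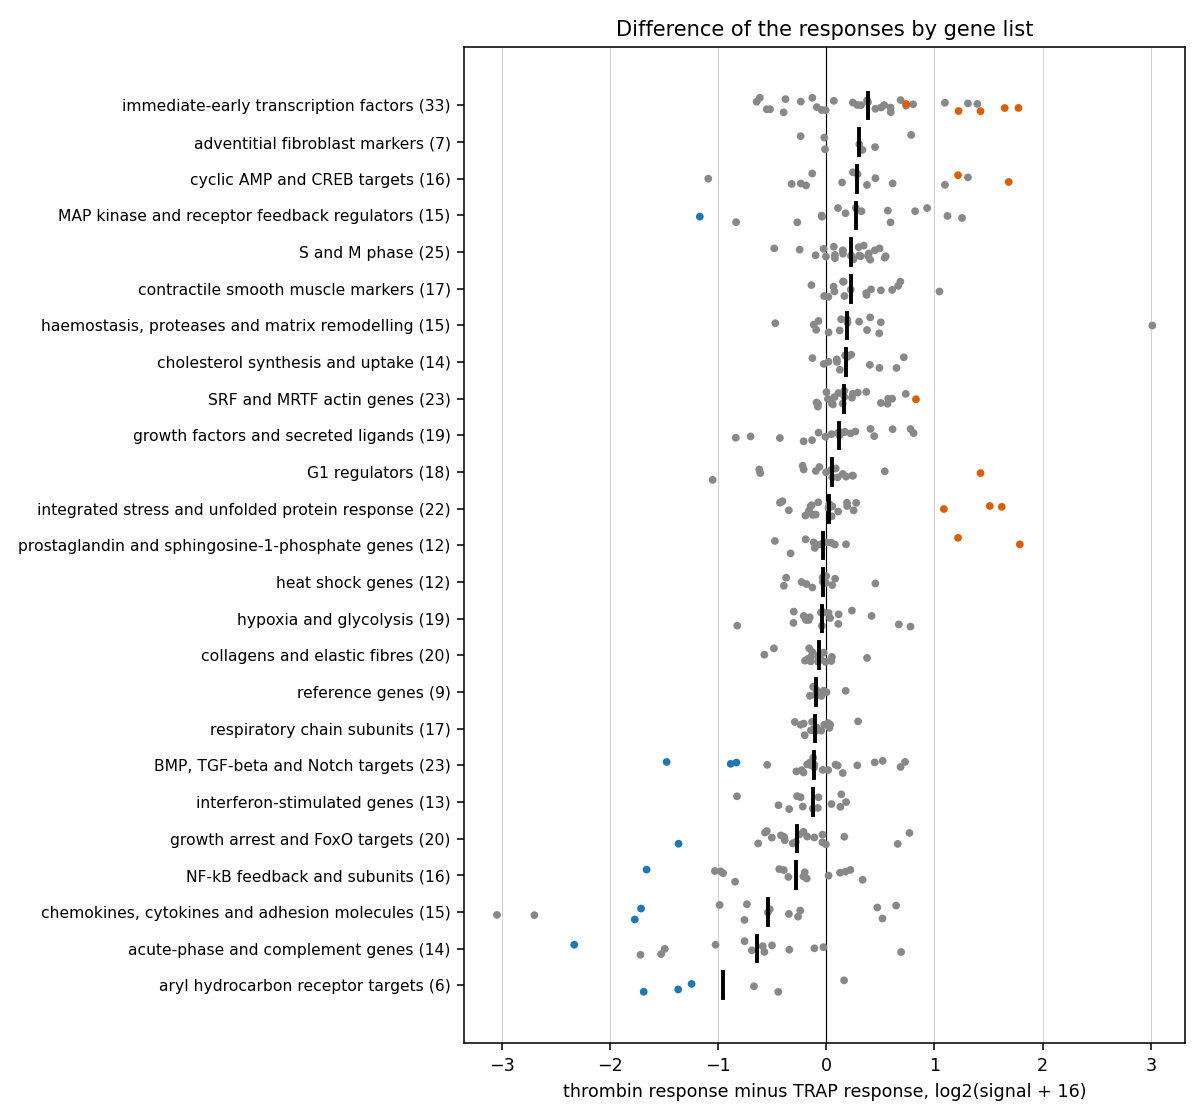
Difference of responses on the log2(signal + 16) scale for every tested member of the gene lists shown, each with at least 5 tested members (number in brackets), ordered by the list's median (black bar). Coloured points are called genes. The aryl hydrocarbon receptor list has the lowest median, -0.956, and the immediate-early list the highest, 0.385.

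Many responses were called after both agents. Past the threshold in the same direction after both agents were 150 genes, 112 up and 38 down, and for 5 of them the difference was called (Arc, Csrnp1, Ptgs2, Zfp36 and Bambi). Of the 10 of these genes with the largest mean response, 8 had no called difference, and their intervals say how unlike the responses could be. Fosl1, an AP-1 subunit, rose by 3.78 and 3.49, from 127.8 and 109.8 to 1928.7 and 1727.7 with thrombin and from 64.5 and 59.1 to 699.1 and 1049.7 with TRAP. The difference was 0.29, with a 95% interval of -0.46 to 1.04. Noct, a circadian phosphatase, had an interval of -0.29 to 0.87, Plaur, the urokinase receptor, of -0.11 to 0.86, and Sgk1, a serum-induced kinase, of -0.57 to 1.11. Those of Dusp5, a nuclear ERK phosphatase, and Nfkbiz were wider, -0.01 to 1.88 and -2.08 to 0.12. An uncharacterised gene, C9h6orf141, had -0.05 to 1.54. Egr2, a zinc finger factor, rose by 3.09 and 1.70 and missed the threshold narrowly (interval of the difference 0.77 to 2.02, adjusted p = 0.0535). These intervals leave room for differences of 1 or more in either or both directions for several genes, so similar responses are not shown.

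**Figure D5:**
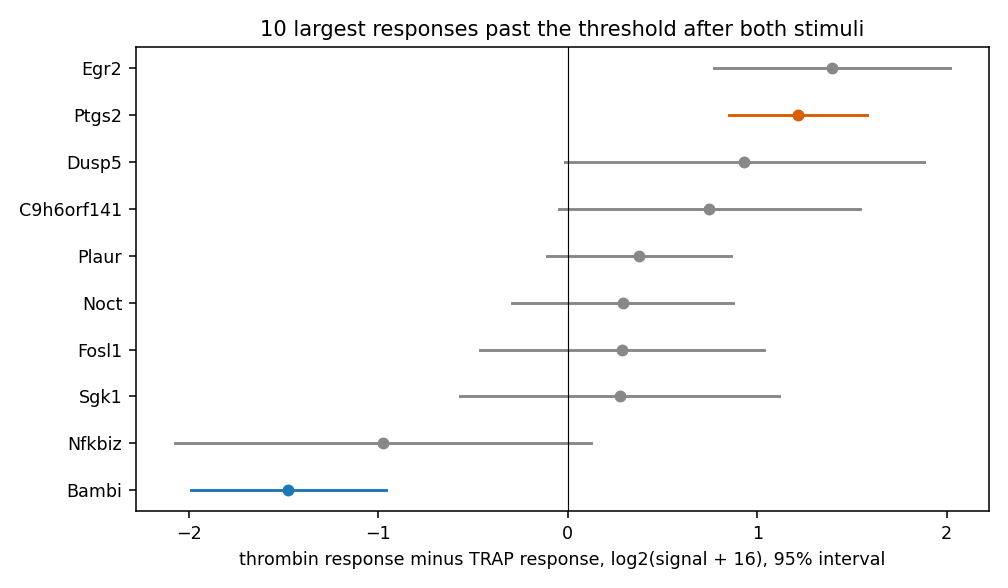
Difference of responses (point) and its 95% interval (line) on the log2(signal + 16) scale for the 10 genes with the largest responses past the threshold after both agents. Ptgs2 (1.22) and Bambi (-1.47) are called, and the intervals of 7 of the grey genes include 0, Egr2 being the exception.

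Among the receptors, F2r was strongly expressed on all 12 arrays, from 2747.8 to 4194.8. It read 3606.3 and 3313.5 before and 3833.3 and 3571 after thrombin, and 2917.3 and 3266.7 before and 3251.7 and 3450.6 after TRAP. The difference of -0.02 ± 0.13 had an interval of -0.30 to 0.26, and the unstimulated levels differed by an uncalled 0.16. F2rl1 (PAR2), a receptor cut by trypsin rather than thrombin, was higher in unstimulated cells of the thrombin experiment, 193.8 and 135.7 against 59.2 and 57.7 (1.26, adjusted p = 0.000374). Its difference of responses was 0.31 ± 0.30. F2rl2 (PAR3) and F2rl3 (PAR4), with mean signals of 16.3 and 6.33, were too dim to be tested.

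Some large differences missed the threshold. Serpinb2, an inhibitor of plasminogen activators, read 44.7 and 30 before and 1321.1 and 1530.8 after thrombin, and 24.5 and 26.8 before and 73.6 and 204 after TRAP. Both thrombin arrays were far above the TRAP arrays, but the difference of 3.01 ± 0.67 had an adjusted p of 0.0709, and fell to 2.37 (adjusted p = 0.205) without TRAP replicate 1. Its value was 3.01 with an adjusted p of 0.0122 in a fit of the 8 arrays alone. For 2 MAP kinase phosphatases the brightest probe set missed and a dimmer one passed. Dusp1 gave 1.25 ± 0.27 (adjusted p = 0.0595) and 1.41 ± 0.15 on a second probe set (adjusted p = 0.000912). Dusp6 gave -0.83 ± 0.20 (adjusted p = 0.111), -1.08 ± 0.17 on a second probe set (adjusted p = 0.00964) and -0.96 ± 0.21 on one more (adjusted p = 0.0707). The angiogenic factor Vegfa gave 0.78 ± 0.16 (adjusted p = 0.0569) and 0.92 on another (adjusted p = 0.0156).

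Other lists showed few called differences or none. Over all genes, 0.252% were called above 0 and 0.262% below. Among 16 cyclic AMP and CREB targets 2 were called above 0 (Ptgs2 and Gem), and among 18 G1 regulators 1 (Myc). Called below 0 were 1 of 15 MAP kinase and receptor feedback regulators (Spry1) and 1 of 20 growth arrest and FoxO targets (Txnip). None was called among 25 genes of S and M phase, 14 of cholesterol synthesis, 12 heat shock genes, 19 of hypoxia and glycolysis, 20 collagens and elastic fibre genes, 17 respiratory chain subunits and 9 reference genes. The 9 reference genes had differences of -0.151 to 0.179.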

How the data were processed

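Biotin-labelled RNA of 12 samples was measured on Affymetrix arrays, 1 sample per array, with 31099 probe sets. The authors deposited intensity values on a linear scale, made with GCOS 1.4 per the submitters' processing notes. Per array, the mean without the extreme 2% at each end is close to 200. No genome build is named, and detection calls were not used, so no fold is given as a bound.

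From these, log2(signal + 16) was computed. The 57 control probe sets were dropped, and 18625 probe sets were kept, those whose mean log2 signal exceeded the 40th percentile. A gene is the brightest kept probe set with exactly 1 annotated symbol (9906 genes). Of all probe sets, 20826 list 1 symbol, 436 several and 9780 none. The 6 groups of 2 arrays, taken from the labels, entered 1 linear model (limma 3.58.1, R 4.3.3) with lmFit and trended eBayes, leaving 6 residual degrees of freedom (prior 7.5). Tests were 2-sided, with Benjamini-Hochberg adjustment and a threshold of 0.05. The fit was tested on simulated data in which all arrays shared 1 base level per probe set and only thrombin arrays were changed. The experiments here differed before stimulation, unlike the simulated ones, and no result here rests on that test.

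Named genes are the 15 largest differences in each direction past the threshold, the 10 largest responses shared by both agents, the list members with the smallest p (at most 4 a list), and the 4 receptors. The other called genes, Cyp1a1, the genes that set TRAP replicate 1 apart and the second probe sets were added after their values were seen. Members and lists were chosen with earlier results of these data known. Same-numbered arrays did not deviate together (correlations of -0.13 to 0.13 between the 4 groups), so replicate number was not a block. Where 1 array of a group was left out, its partner was taken to vary as the remaining groups do. Promoters are from RefSeq (GRCr8). Alternatives were other pseudocounts (1 and 64), filters (none, 60th percentile), scalings, no trend, array weights, a replicate block, the 8 arrays alone, a further 2-fold threshold, and each array left out. An item withheld for evaluation is not reported here.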

Additional observations from a re-analysis of the deposited data

Results flagged for a closer look

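The test of the difference between the 2 responses passed the threshold at 99 probe sets, which is what drew attention to the genes given here with their differences of responses on the log2(signal + 16) scale. Agent and experiment cannot be told apart in them.

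Above 0 with a called rise after thrombin and no called change after TRAP were Sphk1 at 1.79, Gem at 1.69, Klf6 at 1.65, Myc at 1.43, Otud1 at 1.42, Ldb3 at 1.16, Pdp2 at 1.09, Ppp1r15a at 1.00, Nexn at 0.96, Tnfrsf11b at 0.84, Fhl2 at 0.83 and Bcr at 0.81. Genes that rose after both agents and further after thrombin were Arc at 1.78, Csrnp1 at 1.22, Ptgs2 at 1.22 and Zfp36 at 0.74. A rise after thrombin stood against a fall after TRAP for Klf7 at 1.52 and Palld at 1.19. A fall after TRAP with no called change after thrombin was measured for Arid5b at 1.70, Chac1 at 1.62, Trib3 at 1.51, Sesn2 at 1.09, Nfix at 1.05, Traf5 at 1.04 and Mllt11 at 0.83. Below 0 with a called rise after TRAP and no called change after thrombin were Cebpd at -2.33, Tslp at -1.71, Tiparp at -1.69, Irf1 at -1.66, Ahrr at -1.37, Cyp1b1 at -1.24, Sim2 at -1.14, Fnip2 at -1.07, Arhgef3 at -1.04, Zfp36l1 at -1.04, Ipmk at -0.89, Smad3 at -0.88, Tgif1 at -0.83 and Edc3 at -0.77. A fall after thrombin with no called change after TRAP was measured for Cdc42ep2 at -1.80, Txnip at -1.36, Enc1 at -1.35, Tmcc3 at -1.35, Add3 at -1.27, Spry1 at -1.17, Lpar6 at -0.98, Synpo at -0.97 and Trappc5 at -0.77. Opposite called responses, down after thrombin and up after TRAP, belonged to Il15 at -1.77 and Irf2bpl at -1.37. Both agents lowered 1 gene, Bambi at -1.47, and thrombin further.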

How the results depend on the processing

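The 99 called probe sets (60 above 0, 39 below) became 23 without the intensity trend (12 and 11) and 67 without a filter on dim probe sets (36 and 31). They were 73 with arrays centred on their medians (34 and 39), 143 with array weights (94 and 49), 138 with a pseudocount of 64 and 69 with a further 2-fold threshold. The cause of these shifts was not tested, apart from the further threshold, which removes calls by construction. Leaving out 1 array gave 33 to 140, with 16 to 96 above 0 and 15 to 45 below. Fits of the 8 arrays alone gave 100, 77 without TRAP replicate 1 and 130 without TRAP replicate 2. With the replicate number as a block (replicate block) 82 were called, 79 of them among the 99. No called gene reversed under any setting run. Of single-gene results, 3153 stayed on their side of the threshold, 332 lost it and 49 gained it. With 2 arrays per group, the number of arrays limits the precision.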
